A study of Mus musculus with 12 samples.

Results

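The 10 genes described here encode the CD3 chains, the CD4 and CD8 co-receptors and 3 further surface or signalling proteins of T cells: Cd3d, Cd3e, Cd3g, Cd247, Cd4, Cd8a, Cd8b1, Cd2, Lck and Cd5. They were picked by gene name from the 54532 genes of the deposited expression table, by a rule that uses no measured value but was written with earlier results of these data known, and all 10 were found. Total RNA was sequenced from the hyperplastic mammary gland of MIC mice (females, FVB/N strain). In this model doxycycline induces polyoma middle T and, with it, Cre recombinase in the mammary epithelium. The study is about Chi3l1, a chitinase-like protein that cells secrete, and its bearing on neutrophil extracellular traps and on the exclusion of T cells from breast tumours. The 3 groups, of 4 libraries each, are MIC Stat3 ko, MIC Chi3l1 ko and MIC WT, called Stat3 ko, Chi3l1 ko and WT here. The library numbers within a group are not from the labels. They were assigned here in the order of the sample records and pair no libraries across groups. Common to all 3 are the MIC transgenes, the strain, the sex, drinking water with 2 mg/ml doxycycline and the time of 2 wk in the titles. The labels give neither the alleles behind the knockouts, nor whether Chi3l1 was lost in all cells or in Cre-expressing cells, nor the age of the mice. They also do not state that the 4 libraries of a group came from separate animals, so p-values measure the spread between these libraries, which may be technical.

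T cells recognise antigen through the T cell receptor, whose alpha and beta chains have almost no signalling tail of their own. Signalling runs through the CD3 gamma, delta, epsilon and zeta chains, whose tails are phosphorylated by the kinase LCK, and LCK is brought to the receptor by CD4, which binds MHC class II, or CD8, which binds MHC class I. In the mammary gland T cells lie in the epithelium and stroma, and they are also packed in the lymph node embedded in the inguinal fat pad, where naive T cells, B cells and high endothelial vessels are found together. In bulk tissue, fewer T cells and less RNA per T cell cannot be told apart.

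The CD3 genes lie side by side on chromosome 9 in the GRCm38 coordinates of the deposited table, and the CD8 genes form a pair on chromosome 6. Cd3g (ENSMUSG00000002033) spans chr9:44969572-44980431 on the minus strand, and Cd3d (ENSMUSG00000032094) starts 1354 bases further on, at chr9:44981786-44987339 on the plus strand, so that the 2 genes are read in opposite directions from a short shared gap. Cd3e (ENSMUSG00000032093) follows on the minus strand at chr9:44998740-45009627, with 11400 bases between it and Cd3d. Cd8b1 (ENSMUSG00000053044, chr6:71322788-71337494) and Cd8a (ENSMUSG00000053977, chr6:71373427-71379173) are both on the plus strand, 35932 bases apart. The zeta chain gene Cd247 (ENSMUSG00000005763) lies elsewhere, at chr1:165788681-165877277, as do Cd4 (ENSMUSG00000023274, chr6:124864692-124888221), Cd2 (ENSMUSG00000027863, chr3:101275899-101287939), Lck (ENSMUSG00000000409, chr4:129548344-129573641) and Cd5 (ENSMUSG00000024669, chr19:10718143-10738974). All 10 are protein-coding, and 9 have the same coordinates in GENCODE M21. Of the exon bases of Cd247, 56.4% overlap exons of Pou2f1 on the opposite strand. Whether the authors counted by strand is not given in the sources used here, so the Cd247 values are uncertain.

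The promoters of the CD3 cluster and of Cd8a are shown as examples. All 10 members moved together across the libraries described below, so this does not set the genes shown apart. RefSeq windows of 300 bases (250 before and 50 after a start site, GRCm38.p6) were found for 7 of the 10 genes, 8 windows in all, since Lck had 2. They were searched on both strands for the ETS letters GGAAG, the RUNX letters TGTGGT, the E-box CAGCTG and the GATA letters AGATAA, motifs named for transcription factor families that act in lymphocytes. Capitals mark the matches, which are written as CTTCC where GGAAG lies on the other strand.
Cd3g, chr9:44980382-44980681, minus strand: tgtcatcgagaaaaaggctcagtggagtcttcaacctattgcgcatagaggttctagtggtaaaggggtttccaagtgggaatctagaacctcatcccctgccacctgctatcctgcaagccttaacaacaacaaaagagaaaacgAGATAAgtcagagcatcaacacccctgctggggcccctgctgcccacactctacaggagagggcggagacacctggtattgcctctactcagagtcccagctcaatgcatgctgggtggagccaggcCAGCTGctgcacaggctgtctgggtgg
Cd3d, chr9:44981536-44981835, plus strand: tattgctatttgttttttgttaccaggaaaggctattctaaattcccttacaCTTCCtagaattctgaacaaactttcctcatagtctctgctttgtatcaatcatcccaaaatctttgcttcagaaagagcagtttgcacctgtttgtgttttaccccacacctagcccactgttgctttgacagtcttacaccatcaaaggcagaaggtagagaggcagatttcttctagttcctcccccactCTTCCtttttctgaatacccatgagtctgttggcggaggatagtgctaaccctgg
Cd3e, chr9:45009562-45009861, minus strand: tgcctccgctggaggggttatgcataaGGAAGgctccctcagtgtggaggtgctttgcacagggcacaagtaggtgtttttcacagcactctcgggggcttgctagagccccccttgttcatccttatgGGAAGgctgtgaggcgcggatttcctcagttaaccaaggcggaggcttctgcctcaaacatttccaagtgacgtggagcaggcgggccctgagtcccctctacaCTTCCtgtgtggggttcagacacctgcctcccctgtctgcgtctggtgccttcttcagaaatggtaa
Cd8a, chr6:71373177-71373476, plus strand: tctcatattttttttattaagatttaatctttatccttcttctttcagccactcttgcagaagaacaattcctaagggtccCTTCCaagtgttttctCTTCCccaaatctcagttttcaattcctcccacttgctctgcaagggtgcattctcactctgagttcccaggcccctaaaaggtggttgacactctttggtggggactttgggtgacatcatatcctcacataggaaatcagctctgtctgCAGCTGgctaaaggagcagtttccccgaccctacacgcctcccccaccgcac

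The ETS letters were in 7 of the 8 windows, all but that of Cd3g, but they also stood in 71.3% of the 32544 RefSeq windows of this length. Cd3g held the GATA letters 104 bases before its start and the E-box 24 bases after it. The E-box was also in the Cd8a window, making 2 of 8 against 16.4% of all windows. GATA letters were in 1 of 8 windows (11.2% of all) and RUNX letters in 1 of 8, at Lck (16.7% of all). These matches describe the letters of the windows and are not mapped binding sites.

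The libraries held 16217143 to 22607123 gene counts. The targeted genes followed the labels: Stat3 had 12.2 to 18.8 FPKM in Stat3 ko, against 46.2 to 49.7 FPKM in WT, and Chil1, the mouse gene name of Chi3l1, had at most 0.0323 FPKM in Chi3l1 ko, against 107 to 212 FPKM in WT. Chil1 was also low in Stat3 ko, at 4.92 to 17.6 FPKM, so Stat3 ko did not keep the WT level of Chil1. FPKM is the number of sequenced fragments scaled by gene length and by a factor for each library, which here differed from the total gene count. Mammary epithelium genes, among them Epcam and keratins, were present in all libraries. Their summed FPKM over 10 genes was 1113 to 2395 in Stat3 ko, 2156 to 2711 in Chi3l1 ko and 2317 to 2894 in WT. Their mean log2(FPKM + 1) was 5.046 to 6.199 in Stat3 ko, 6.587 to 7.187 in Chi3l1 ko and 6.904 to 7.148 in WT. On this scale every Stat3 ko library lay below all others. In Stat3 ko against WT, 0 of 10 limma differences were positive, with a median of -0.897. Of the 10, 2 fell, beside 1145 of 13643 genes. Without Stat3 ko 2 and Stat3 ko 3 the median was -0.864. The bearing of these lower epithelial levels on the T cell gene levels was not tested. Stat3 ko 2 and Stat3 ko 3 stood apart from the other 10 libraries in genes of lymph nodes. Glycam1, a mucin listed here for high endothelial vessels, had 439.6 and 161.3 FPKM there, against 0 to 9.99 FPKM in the other 10 libraries. Whether these vessels or other cells of the gland held its RNA was not tested. The limma calls of the members and of the T cell lists are therefore also given without them, a setting chosen after the data were seen. edgeR, DESeq2 and array weights were not run without them.

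All 10 T cell genes were highest in Stat3 ko 2 and next highest in Stat3 ko 3, while the 8 Chi3l1 ko and WT libraries held low and similar levels. The summed FPKM of the 10 genes was 45.0, 274.8, 156.4 and 27.6 in Stat3 ko 1 to 4, against 21.4, 21.2, 35.3 and 19.4 in Chi3l1 ko 1 to 4 and 16.4, 35.2, 17.3 and 18.1 in WT 1 to 4. Stat3 ko 4 lay below Chi3l1 ko 3 and WT 2, so the groups overlapped in this sum. Lck had the highest mean level per length in Stat3 ko, at 22.5 ± 21.1 FPKM (SD, n = 4), and in WT, at 4.24 ± 1.72 FPKM, while Cd8a stood just above it in Chi3l1 ko, at 4.48 ± 1.76 against 4.43 ± 1.41 FPKM. Cd247 had the lowest mean in each group, at 3.87 ± 4.15 FPKM in Stat3 ko, 0.356 ± 0.167 FPKM in Chi3l1 ko and 0.431 ± 0.243 FPKM in WT. Between these ends, neighbours in the order of means differed by less than the larger of their SDs, with 1 exception, the step in Chi3l1 ko between Cd8b1 at 3.85 ± 1.38 FPKM and Cd3g at 2.35 ± 0.750 FPKM.

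**Figure D1:**
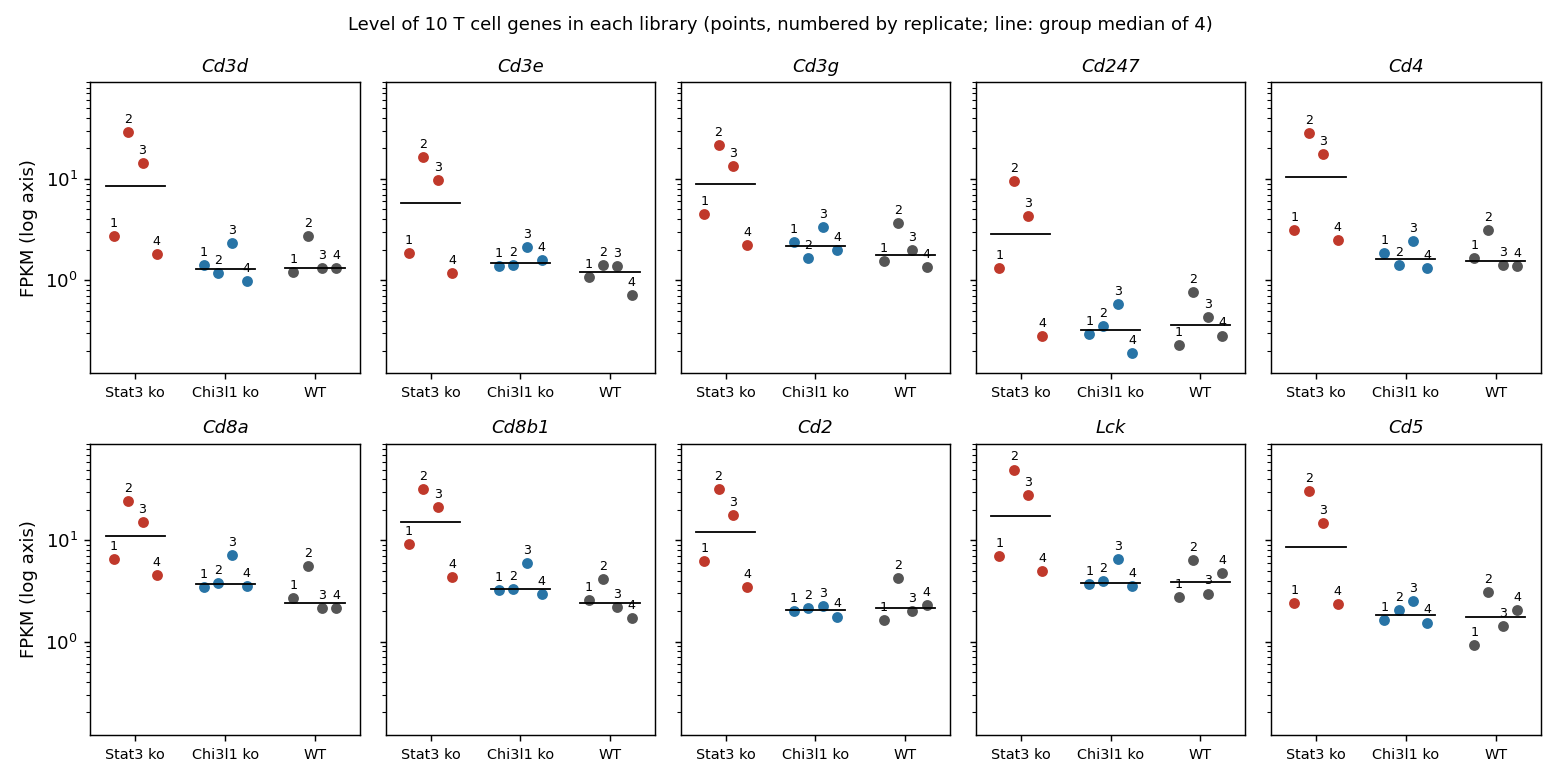
FPKM on a log axis of each of the 10 T cell genes in the 12 libraries, in the order Stat3 ko, Chi3l1 ko and WT. Points are libraries numbered by replicate, and lines are group medians of 4. In every panel Stat3 ko 2 and 3 lie above all other libraries, and Stat3 ko 4 lies among or near the Chi3l1 ko and WT points.

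Among the CD3 chains, Cd3d, the delta chain, had 2.74, 28.8, 14.4 and 1.81 FPKM in Stat3 ko 1 to 4, against 1.42, 1.17, 2.35 and 0.988 FPKM in Chi3l1 ko 1 to 4 and 1.20, 2.76, 1.31 and 1.32 FPKM in WT 1 to 4. Only Stat3 ko 2 and 3 exceeded every WT library, and WT 2 was level with Stat3 ko 1. Cd3e, the epsilon chain that pairs with the gamma and delta chains, had 1.87, 16.6, 9.79 and 1.18 FPKM in Stat3 ko, against 1.39, 1.42, 2.13 and 1.57 FPKM in Chi3l1 ko and 1.07, 1.41, 1.37 and 0.717 FPKM in WT. Here 3 of 4 Stat3 ko libraries were above all WT libraries, and Stat3 ko 4 lay below all 4 Chi3l1 ko libraries. Cd3g, the gamma chain, had 4.50, 21.8, 13.4 and 2.25 FPKM in Stat3 ko, against 2.36, 1.66, 3.39 and 1.99 FPKM in Chi3l1 ko and 1.56, 3.64, 1.97 and 1.36 FPKM in WT. WT 2, Chi3l1 ko 1 and Chi3l1 ko 3 lay above Stat3 ko 4. Cd247, the zeta chain that carries most of the signalling motifs of the receptor, had 1.33, 9.53, 4.33 and 0.278 FPKM in Stat3 ko, against 0.294, 0.356, 0.583 and 0.189 FPKM in Chi3l1 ko and 0.231, 0.772, 0.435 and 0.284 FPKM in WT. It rested on 18 to 92 counts in each Chi3l1 ko or WT library. Its level reached 1 FPKM in 3 libraries, all of them Stat3 ko.

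Of the co-receptors, Cd4 had 3.15, 28.4, 17.6 and 2.48 FPKM in Stat3 ko 1 to 4, against 1.85, 1.40, 2.46 and 1.32 FPKM in Chi3l1 ko 1 to 4 and 1.67, 3.13, 1.41 and 1.39 FPKM in WT 1 to 4. Some dendritic cells of mice also carry CD4. All Stat3 ko libraries lay above all Chi3l1 ko libraries for this gene, the closest pair being 2.48 and 2.46 FPKM, whereas WT 2 lay above Stat3 ko 4. Cd8a, the alpha chain of CD8, had 6.55, 24.3, 15.3 and 4.51 FPKM in Stat3 ko, against 3.45, 3.83, 7.11 and 3.53 FPKM in Chi3l1 ko and 2.71, 5.62, 2.13 and 2.14 FPKM in WT. WT 2 and Chi3l1 ko 3 lay above Stat3 ko 4 here too. Some dendritic cells and intraepithelial lymphocytes carry CD8 alpha without the beta chain. Cd8b1, the beta chain that is largely restricted to CD8 T cells, had 9.14, 31.8, 21.2 and 4.32 FPKM in Stat3 ko, against 3.25, 3.29, 5.92 and 2.95 FPKM in Chi3l1 ko and 2.60, 4.13, 2.20 and 1.73 FPKM in WT. It was the member for which all 4 Stat3 ko libraries lay above all 4 WT libraries.

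The remaining 3 genes were also highest in Stat3 ko 2 and next highest in Stat3 ko 3, with other orders below these. Cd2, an adhesion receptor of T and NK cells that mouse B cells also carry, had 6.24, 32.4, 17.8 and 3.43 FPKM in Stat3 ko 1 to 4, against 2.01, 2.13, 2.25 and 1.77 FPKM in Chi3l1 ko 1 to 4 and 1.64, 4.24, 2.03 and 2.28 FPKM in WT 1 to 4. Its Chi3l1 ko libraries were the most even of any member, with a mean of 2.04 ± 0.204 FPKM, and all lay below every Stat3 ko library. Lck, the kinase that starts receptor signalling, had 7.07, 50.1, 27.9 and 4.93 FPKM in Stat3 ko, against 3.71, 3.94, 6.54 and 3.54 FPKM in Chi3l1 ko and 2.75, 6.43, 2.98 and 4.78 FPKM in WT. Stat3 ko 1, 2 and 3 lay above all WT libraries for Lck, and Stat3 ko 4 lay below WT 2. Cd5, a receptor that dampens T cell receptor signals and is also carried by B-1 cells, had 2.41, 31.0, 14.8 and 2.35 FPKM in Stat3 ko, against 1.63, 2.03, 2.54 and 1.54 FPKM in Chi3l1 ko and 0.920, 3.09, 1.43 and 2.05 FPKM in WT. For Cd5, Stat3 ko 1 and 4 both lay below WT 2 and Chi3l1 ko 3.

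Of the 9 T cell genes tested in Stat3 ko against WT, 3 rose and 0 fell, namely Cd8b1, Cd2 and Cd8a. By limma on log2(FPKM + 1), Cd8b1 was higher by 1.98 ± 0.48 (SE; adjusted p = 0.0229), Cd2 by 1.80 ± 0.51 (adjusted p = 0.0399) and Cd8a by 1.54 ± 0.44 (adjusted p = 0.0420). Over all 13643 genes tested, 14.0% were called in either direction and 5.61% were higher. The other 6 members tested had positive differences that did not pass, with adjusted p from 0.0649 for Cd3g to 0.0920 for Cd5. Their differences were 1.69 ± 0.63 for Cd3d, 1.47 ± 0.55 for Cd3e, 1.53 ± 0.51 for Cd3g, 1.74 ± 0.59 for Cd4, 1.70 ± 0.58 for Lck and 1.66 ± 0.63 for Cd5. Over the 9 genes the median difference was 1.69, beside a median of -0.024 over all genes. Cd247 failed the filter of at least 1 FPKM in at least 4 libraries, and without that filter its difference was 1.34 ± 0.52 (limma adjusted p = 0.166). In the authors' deposited table all 10 members were listed as higher in Stat3 ko over WT. The authors' log2 fold changes ran from 1.99 for Cd8a to 3.14 for Cd247. The authors' adjusted p ran from 0.000158 for Cd8b1 to 0.00455 for Cd5. That table listed 6155 genes, 3547 of them with an authors' adjusted p under 0.05. With Cd8b1 as the exception, the ranges of Stat3 ko and WT overlapped for each member, so 1 of 10 did not overlap, where 9.67% of tested genes had every Stat3 ko library above every WT library.

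These calls depended on the fit and on single libraries. edgeR on the recovered counts called all 9 as higher, with adjusted p from 0.0132 to 0.0336 and 9.37% of all genes called higher, and DESeq2 also called 9, with 15.3% of all genes called higher (17.3% and 26.6% in either direction). limma with array weights, which lets noisy libraries count less, called 9 as well, with 6.16% of all genes higher and 13.6% in either direction. Without Stat3 ko 2 and Stat3 ko 3, limma called 0 of 9, with 2 at an unadjusted p under 0.05, and the median difference was 0.46. Over all genes that fit tested 13187 and called 399 as higher and 582 as lower. In it Cd8b1 was 1.04 higher (adjusted p = 0.0747), Cd2 0.73 (adjusted p = 0.101), Cd8a 0.71 (adjusted p = 0.167) and Cd3e 0.24 (adjusted p = 0.382). Leaving out single libraries gave 0 calls without WT 1, WT 3 or WT 4, 1 without Stat3 ko 2 or Stat3 ko 3, 6 without Stat3 ko 1 and 9 without Stat3 ko 4. Leaving out Chi3l1 ko libraries, which only share the estimate of the spread, gave 1 call without Chi3l1 ko 1, 3 or 4 and 2 without Chi3l1 ko 2. The calls over all genes moved too: beside 766 genes higher with all libraries, 159 were higher without WT 1, 338 without WT 3, 221 without WT 4, 428 without Stat3 ko 2, 958 without Stat3 ko 3, 774 without Stat3 ko 1 and 1438 without Stat3 ko 4. Without a Chi3l1 ko library they were 514 to 855.

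**Figure D2:**
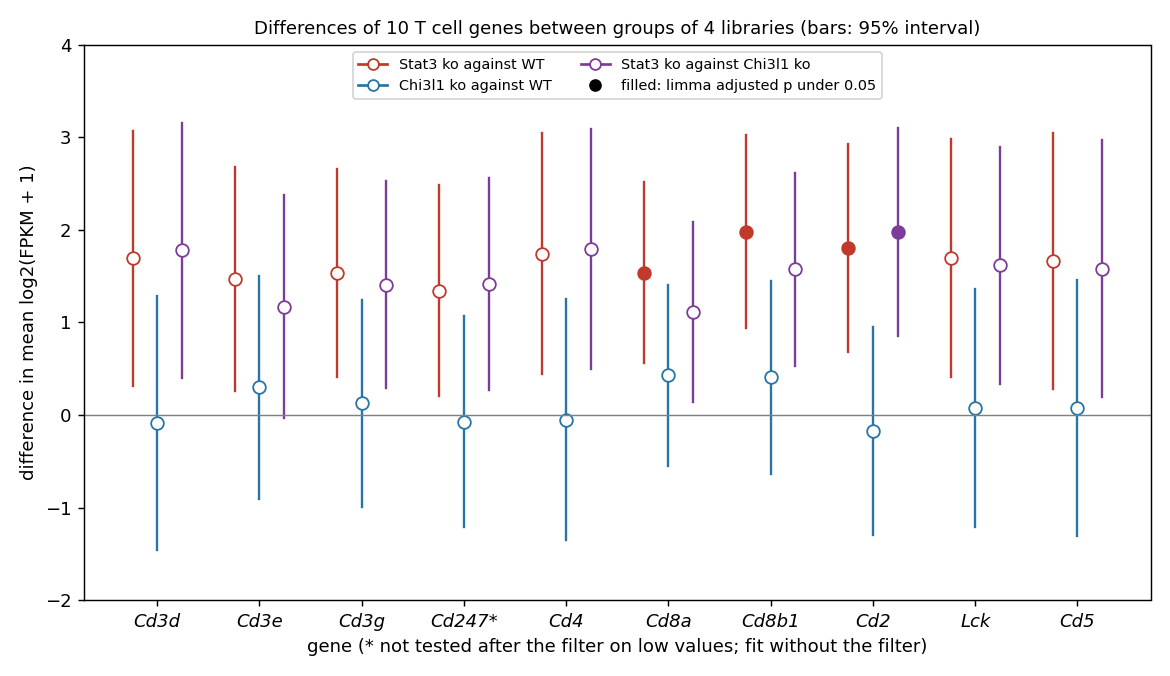
Differences in mean log2(FPKM + 1) with 95% intervals for the 10 T cell genes in Stat3 ko against WT, Chi3l1 ko against WT and Stat3 ko against Chi3l1 ko. Filled points passed limma's adjusted p of 0.05, which were Cd8b1, Cd2 and Cd8a in Stat3 ko against WT and Cd2 in Stat3 ko against Chi3l1 ko; the Chi3l1 ko against WT points lie between -0.17 and 0.43 with intervals across 0.

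In Chi3l1 ko against WT, none of the 9 tested T cell genes passed limma's test, and the wide intervals cover changes in both directions. The count was 0 of 9 by limma, 0 by edgeR, 0 by DESeq2 and 0 at an unadjusted limma p under 0.05, and over all genes limma and edgeR each called 0.00733%, which is 1 gene, lower in Chi3l1 ko. DESeq2 called 0.0586% of all genes and limma with array weights 0.0147%, none of them higher (0%). Differences ran from -0.17 for Cd2 to 0.43 for Cd8a on the log2 scale, 6 of 9 were positive, and their median was 0.078 beside 0.0030 over all genes. Cd8a averaged 4.48 ± 1.76 FPKM in Chi3l1 ko and 3.15 ± 1.67 FPKM in WT (SD, n = 4), a difference of 0.43 with a 95% interval from -0.55 to 1.40. Cd8b1 averaged 3.85 ± 1.38 FPKM in Chi3l1 ko and 2.67 ± 1.04 FPKM in WT, a difference of 0.41 with an interval from -0.64 to 1.45. Cd3e averaged 1.62 ± 0.343 FPKM in Chi3l1 ko and 1.14 ± 0.322 FPKM in WT, with an interval from -0.91 to 1.5. For Cd4 the means were 1.76 ± 0.524 FPKM in Chi3l1 ko and 1.90 ± 0.83 FPKM in WT, and the interval of the difference ran from -1.35 to 1.25. The upper bounds correspond to 2.64-fold for Cd8a, 2.73-fold for Cd8b1, 2.84-fold for Cd3e and 2.38-fold for Cd4 on the FPKM + 1 scale, so rises up to those sizes lie within the intervals. None of the 10 members had every Chi3l1 ko library above every WT library, beside 1.12% of tested genes. The authors' deposited table for Chi3l1 ko over WT lists 1 member, Cd3e, with the authors' log2 fold change of 0.51, unadjusted p of 0.0478 and adjusted p of 0.9997. That table listed 824 genes, 31 of them with an authors' adjusted p under 0.05.

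Stat3 ko against Chi3l1 ko asks whether the 2 knockouts held different amounts of T cell RNA. Chil1 levels were below WT in both groups, as given above. Cd2 was the member that passed, higher in Stat3 ko by 1.97 ± 0.51 (limma adjusted p = 0.0303), where 13.2% of all genes were called in either direction and 5.19% higher. Cd8b1 was next, at 1.57 ± 0.48 (adjusted p = 0.0506), and Cd4 differed by 1.79 ± 0.59 (adjusted p = 0.0678). All 9 differences were positive, with a median of 1.58, and 8 had an unadjusted p under 0.05. For Cd2 and Cd4 all Stat3 ko libraries lay above all Chi3l1 ko libraries, 2 of 10 members beside 6.85% of tested genes. edgeR called 7 of 9, all but Cd3e and Cd8a (6.84% of all genes higher), and DESeq2 called 9 (13.0% higher), beside 14.0% and 23.9% of all genes in either direction. Array weights gave 6 calls (6.39% of all genes higher and 14.6% in either direction). Without Stat3 ko 2 and Stat3 ko 3 limma called 0, Cd2 was 0.90 higher (adjusted p = 0.0715), and Cd3e turned to -0.062, while 394 of 13187 genes were called higher and 573 lower. This comparison shares the Stat3 ko libraries with the comparison to WT, so the 2 sets of calls are not independent.

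The balance of CD8 to CD4 transcripts differed between libraries in another way than the total. The ratio of Cd8a to Cd4 FPKM was 2.08, 0.854, 0.869 and 1.82 in Stat3 ko 1 to 4, against 1.86, 2.73, 2.89 and 2.67 in Chi3l1 ko 1 to 4 and 1.63, 1.80, 1.51 and 1.54 in WT 1 to 4. Stat3 ko 2 and 3 were the libraries with more Cd4 than Cd8a, and 3 of 4 Chi3l1 ko libraries lay above all other libraries. As log2 of the ratio of FPKM + 1, the means were 0.28 ± 0.56 in Stat3 ko, 0.96 ± 0.24 in Chi3l1 ko and 0.48 ± 0.14 in WT (SD, n = 4). Chi3l1 ko exceeded WT by 0.48 (exact two-sided permutation p = 0.0571, adjusted over 6 ratio tests 0.129), and on this scale Chi3l1 ko 1, at 0.64, lay below WT 2, at 0.68. The plain ratios of the 2 groups did not overlap, and without the added 1 FPKM, a setting chosen after the data were seen, the log2 difference was 0.63 (exact permutation p = 0.0286, adjusted 0.114). Stat3 ko against Chi3l1 ko gave -0.68 (exact permutation p = 0.0857, adjusted 0.129). Against WT, Stat3 ko differed by -0.20 (exact permutation p = 0.457, adjusted 0.457), a sign that turned to 0.24 with Cd8b1 in place of Cd8a and to 0.28 without Stat3 ko 2 and Stat3 ko 3. None of these passed, and the smallest p that 4 against 4 libraries allow is 0.0286. A ratio alone at that p would not pass after adjustment over 6 tests, so no conclusion is drawn from the lack of a pass.

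The beta chain of CD8 was high relative to the alpha chain in part of the Stat3 ko libraries. Cd8b1 to Cd8a FPKM ratios were 1.40, 1.31, 1.38 and 0.957 in Stat3 ko 1 to 4, against 0.943, 0.860, 0.832 and 0.835 in Chi3l1 ko 1 to 4 and 0.962, 0.735, 1.03 and 0.807 in WT 1 to 4. Stat3 ko 1, 2 and 3 lay above every other library, and Stat3 ko 4 lay within the WT range. This ratio was not tested.

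**Figure D3:**
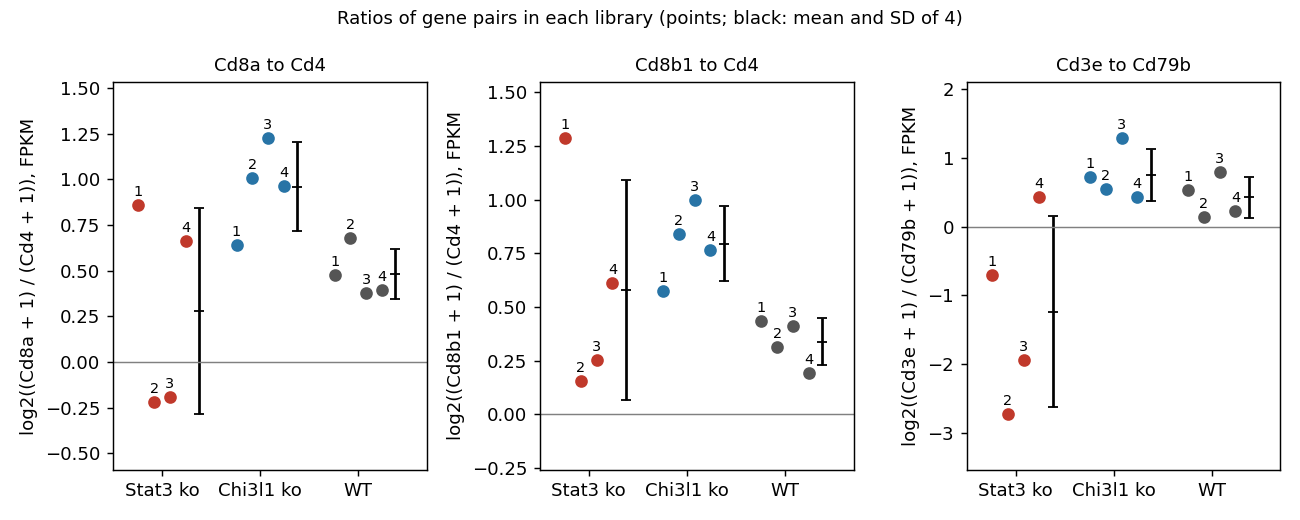
Log2 ratios of FPKM + 1 for Cd8a to Cd4, Cd8b1 to Cd4 and Cd3e to Cd79b in each library (points, numbered by replicate), with the mean and SD of 4 in black, for Stat3 ko, Chi3l1 ko and WT. Stat3 ko 2 and 3 are lowest for Cd8a to Cd4 (-0.22 and -0.19) and for Cd3e to Cd79b (-2.72 and -1.93).

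B cell genes were high in the same Stat3 ko libraries as the T cell genes. The summed FPKM of 14 B cell genes was 65.5, 976, 383 and 35.3 in Stat3 ko 1 to 4, against 12.1 to 32.1 in Chi3l1 ko and 9.97 to 24.2 in WT. Of these 14, 6 passed the filter on low values, 2 of them, Cd22 and Fcrla, only through Stat3 ko libraries. In Stat3 ko against WT 3 of the 6 rose, beside 5.61% of all tested genes. A call of Cd22 or Fcrla would support nothing, because each was tested only for being high in Stat3 ko. Whether these 2 are among the 3 is not reported here, so the count of 3 is no support. Without Stat3 ko 2 and 3 a single B cell gene passed the filter and 0 rose, beside 399 of 13187 genes. The B cell receptor component Cd79b had 3.65, 115.2, 40.3 and 0.629 FPKM in Stat3 ko 1 to 4, against 0.28 to 0.90 FPKM in Chi3l1 ko and 0.368 to 1.19 FPKM in WT. Its Stat3 ko against WT difference was 3.12 ± 1.05 (limma adjusted p = 0.0661), so it was not called. Stat3 ko 1 lay above every Chi3l1 ko and WT library in Cd79b, whereas Stat3 ko 4 lay within their range. The log2 ratio of Cd3e to Cd79b averaged -1.23 ± 1.38 in Stat3 ko, 0.75 ± 0.38 in Chi3l1 ko and 0.42 ± 0.30 in WT. Stat3 ko differed from WT by -1.66 (exact permutation p = 0.0857, adjusted 0.129) and from Chi3l1 ko by -1.98 (exact permutation p = 0.0286, the smallest possible, adjusted 0.129). Without Stat3 ko 2 and 3 these differences were -0.56 and -0.88. Chi3l1 ko against WT gave 0.32 (exact permutation p = 0.257, adjusted 0.309).

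Genes of lymph node stroma, vessels and follicles were high in the same 2 libraries. Over the 11 measured genes of that list the summed FPKM was 21.4, 806, 321 and 12.3 in Stat3 ko 1 to 4, against 11.4 to 19.5 in Chi3l1 ko and 9.84 to 26.4 in WT. Ltb, which lymphocytes make, is in this list and was 15.6 of the 21.4 FPKM in Stat3 ko 1 and 11.0 of the 12.3 FPKM in Stat3 ko 4. Without Ltb the sum over 10 genes was 5.83, 654.3, 249.2 and 1.37 FPKM in Stat3 ko 1 to 4, against 1.3 to 11.9 FPKM in Chi3l1 ko and 3.33 to 15.1 FPKM in WT. Glycam1 had 0.0281 FPKM in Stat3 ko 1 and 0 in Stat3 ko 4, so the high values stood in the pair of libraries named above. Glycam1 alone made up 439.6 of the 654.3 FPKM in Stat3 ko 2 and 161.3 of the 249.2 FPKM in Stat3 ko 3. In Chi3l1 ko 2 it was 9.99 of 11.9 FPKM, so the sum without Ltb largely follows this gene. Whether its RNA came from vessels or from other cells of the gland was not tested. Cxcl13, the chemokine of B cell follicles, had 1.41, 72.6, 43.5 and 0.598 FPKM in Stat3 ko 1 to 4, against 0.654 to 1.82 FPKM in Chi3l1 ko and 1.51 to 4.74 FPKM in WT. None of the 4 lymph node genes tested passed limma in Stat3 ko against WT, for example Glycam1 at 2.51 ± 1.84 (adjusted p = 0.352). The part of lymph node tissue in the T cell gene levels was not tested.

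**Figure D4:**
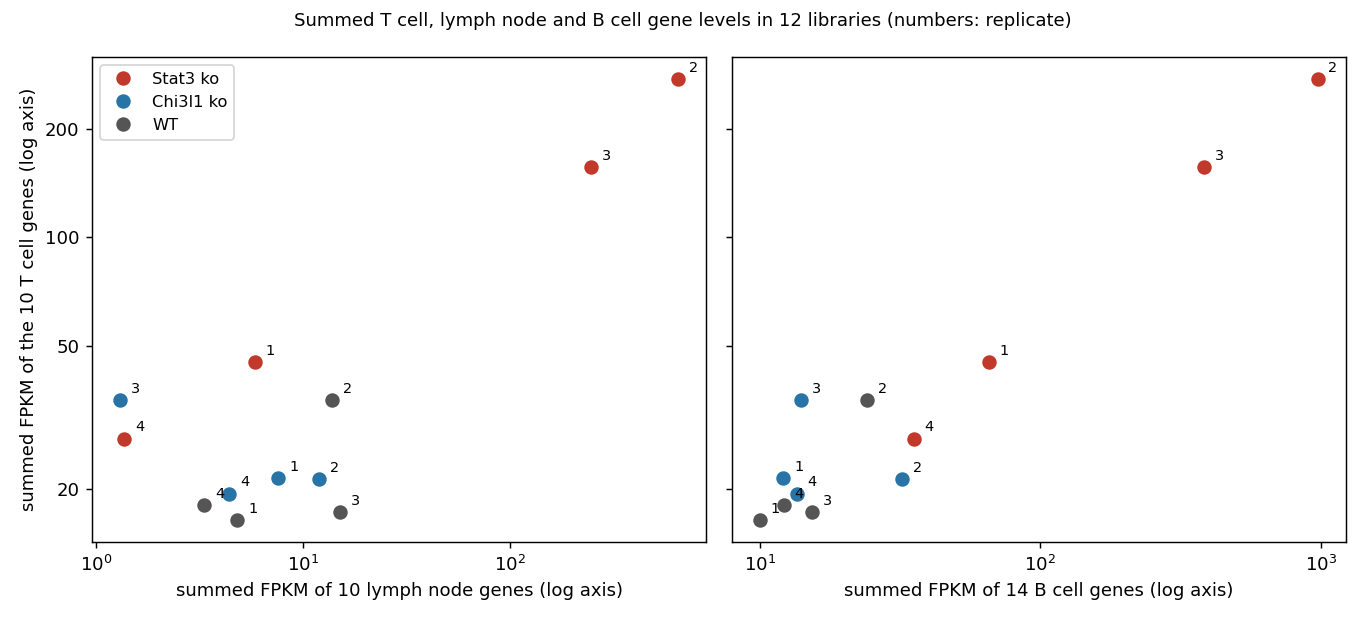
Summed FPKM of the 10 T cell genes (vertical, log axis) against the summed FPKM of 10 lymph node genes without Ltb (left) and of 14 B cell genes (right, both log axes), for each library of Stat3 ko, Chi3l1 ko and WT, numbered by replicate. Stat3 ko 2 and 3 lie far to the upper right in both panels, at 274.8 and 156.4 FPKM of T cell genes, and the other 10 libraries lie at 16.4 to 45.0 FPKM.

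Other tissue also differed between the Stat3 ko libraries. The summed FPKM of 10 adipocyte genes was 13710, 2130, 1579 and 1393 in Stat3 ko 1 to 4, against 320.1 to 2109 in Chi3l1 ko and 204 to 736 in WT, and epithelial genes were lowest in Stat3 ko 1 and 2, at 1113 and 1127. Mitochondrially encoded genes took 4.79%, 3.37%, 1.88% and 1.15% of counts in Stat3 ko 1 to 4, 1.03% to 2.22% in Chi3l1 ko and 1.0% to 1.5% in WT. Without the 3 libraries over 2%, which are Stat3 ko 1, Stat3 ko 2 and Chi3l1 ko 2, limma called 0 of 9 T cell genes against WT, with 8 at an unadjusted p under 0.05 and a median difference of 1.38, while 553 of 13032 genes were called higher and 661 lower. The part of tissue makeup and RNA quality in the T cell genes was not tested.

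Some NK cell and dendritic cell genes were also called higher in Stat3 ko, and NK cells express Cd247 and Cd2 as T cells do. Of 7 tested NK cell genes 3 rose against WT, a count that includes Ncr1, beside 5.61% of all tested genes. The summed FPKM of the NK cell list was 43.2, 40.9, 36.2 and 20.6 in Stat3 ko 1 to 4, against 11.3 to 20.9 in Chi3l1 ko and 9.44 to 25.1 in WT. The NK receptor Ncr1 had 6.31, 2.19, 2.38 and 1.82 FPKM in Stat3 ko, against 0.358 to 0.836 FPKM in Chi3l1 ko and 0.291 to 0.813 FPKM in WT, a difference from WT of 1.25 ± 0.27 (limma adjusted p = 0.0150). Ncr1 passed the filter on low values only through its 4 Stat3 ko libraries, so its call and the lack of overlap support nothing. Its highest value was in Stat3 ko 1 and not in the pair with the most T cell RNA. Of 10 dendritic cell genes 6 rose, among them Flt3, a cytokine receptor of dendritic cell precursors, at 0.85 ± 0.17 (adjusted p = 0.0108). Flt3 likewise passed the filter only through the 4 Stat3 ko libraries, so its call, counted in the 6, supports nothing. Of 13 macrophage genes 5 rose and 1 fell, with Csf1r at 0.65 ± 0.18 (adjusted p = 0.0394) and Adgre1 at 0.51 ± 0.22 (adjusted p = 0.128). Without Stat3 ko 2 and 3, 0 of 4 tested NK cell genes, 2 of 8 dendritic cell genes and 6 of 13 macrophage genes rose. Over all genes 399 of 13187 rose in that fit.

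The 10 T cell genes varied together. Over the 12 libraries the Pearson correlation of log2(FPKM + 1) between 2 members ran from 0.927 for Cd5 and Cd8b1 to 0.996 for Cd4 and Cd3d, with a median of 0.970 over 45 pairs. Over the 10 libraries without Stat3 ko 2 and 3 it ran from 0.291 for Cd2 and Cd3e to 0.959 for Cd4 and Cd3d, with a median of 0.780. The libraries share their depth and scaling across genes, and these correlations are descriptions. Cd4 and Cd3d were thus the closest pair with and without the 2 libraries. Cd3e made up 4.15%, 6.04%, 6.26% and 4.29% of the summed member FPKM in Stat3 ko 1 to 4, against 6.03% to 8.08% in Chi3l1 ko and 3.97% to 7.93% in WT.

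The gene closest to the mean of the 10 members over the 12 libraries was Ltb, lymphotoxin beta, with a Pearson r of 0.999 (0.990 over the 10 libraries without Stat3 ko 2 and 3). It had 15.6, 151.9, 71.5 and 11.0 FPKM in Stat3 ko 1 to 4, against 7.02 to 12.8 FPKM in Chi3l1 ko and 5.87 to 12.6 FPKM in WT. Ltb is made by B cells as well as T cells and also stands in the lymph node list. High among the 13634 tested genes outside the members were also Lat (0.995), Ptprcap (0.994), Itgal (0.994), Tbc1d10c (0.993), Sept1 (0.993) and Trac (0.992). Lat encodes an adaptor of antigen receptor signalling, Ptprcap a partner of CD45, Itgal an integrin chain of leukocytes and Trac the constant region of the receptor alpha chain. In all, 302 genes had an r above 0.9 and 149 above 0.95. The lowest were Zfyve1 (-0.953), Tmbim1 (-0.945), Kdelr1 (-0.945) and Bmp1 (-0.942), which over the 10 libraries were -0.496, -0.219, -0.457 and -0.688.

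The receptor chains themselves followed the CD3 genes. Of 7 constant-region genes 4 passed the filter, and Trbc1 rose in Stat3 ko against WT by 2.31 ± 0.66 (limma adjusted p = 0.0396). This was 1 call among the 4, beside 5.61% of all tested genes called higher. Trbc2 differed by 2.29 ± 0.73 (adjusted p = 0.0588) and Trac by 1.91 ± 0.59 (adjusted p = 0.0526), and neither passed. Trac had 5.13, 40.2, 25.7 and 4.19 FPKM in Stat3 ko 1 to 4, against 2.22 to 5.47 FPKM in Chi3l1 ko and 1.86 to 4.16 FPKM in WT. The gamma chain constant gene Tcrg-C2, a marker of gamma delta T cells, was different: it had 3.22, 3.57, 3.49 and 1.22 FPKM in Stat3 ko, against 1.98, 1.93, 8.06 and 1.04 FPKM in Chi3l1 ko and 2.20, 4.16, 1.73 and 2.06 FPKM in WT. Its highest value was in Chi3l1 ko 3, and its Stat3 ko against WT difference was 0.12 ± 0.42 (adjusted p = 0.861). None of the 4 constant-region genes (0) was called without Stat3 ko 2 and 3, where 399 of 13187 genes were higher. The median difference of the 4 from WT was then 0.70. Trbc1 and Trbc2 are near-identical copies, and how their shared reads were divided is uncertain.

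Of 28 genes that relay the T cell receptor signal, 20 were tested and 6 rose in Stat3 ko against WT, 0 fell, and the median difference was 1.17. Over all 13643 tested genes 5.61% were higher. With the lowest adjusted p were Nfatc2 (0.87 ± 0.16, adjusted p = 0.00722), Nfatc1 (0.98 ± 0.19, adjusted p = 0.00961), Fyn (1.22 ± 0.24, adjusted p = 0.0111) and Prkcq (1.63 ± 0.42, adjusted p = 0.0283). These encode 2 NFAT transcription factors, a kinase related to LCK and a protein kinase C of T cells, and cells other than T cells also express NFAT factors and Fyn. Fyn had 13.9, 22.2, 14.8 and 7.74 FPKM in Stat3 ko 1 to 4, against 4.85 to 6.29 FPKM in Chi3l1 ko and 4.40 to 6.68 FPKM in WT, with no overlap between Stat3 ko and either other group. Of all tested genes, 9.67% had every Stat3 ko library above every WT library, and 6.85% above every Chi3l1 ko library. Of 19 signalling genes tested without Stat3 ko 2 and 3, 3 rose against WT, 0 fell, and the median was 0.40. Over all genes that fit called 399 of 13187 higher. In Chi3l1 ko against WT 0 of 20 were called, with a median of 0.049, beside 0 of 13643 genes higher and 1 lower. In Stat3 ko against Chi3l1 ko 6 rose, with a median of 1.09, or 1 of 19 with a median of 0.40 when Stat3 ko 2 and 3 were left out. For Stat3 ko against Chi3l1 ko, 5.19% of all genes were higher, and 394 of 13187 when Stat3 ko 2 and 3 were left out.

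Among 20 genes of costimulation and T cell state, 16 were tested and 3 rose in Stat3 ko against WT, with a median of 0.51. Beside them 5.61% of all tested genes were higher. S1pr1, which guides T cells out of lymph nodes and is also an endothelial receptor, was 1.72 ± 0.44 higher (limma adjusted p = 0.0297). The cytokine receptor chains Il2rg and Il2rb were higher by 1.49 ± 0.42 (adjusted p = 0.0397) and 0.98 ± 0.30 (adjusted p = 0.0496), and the costimulator Icos differed by 1.10 ± 0.38 (adjusted p = 0.0733). S1pr1 had 21.1, 35.7, 20.7 and 5.23 FPKM in Stat3 ko 1 to 4, against 2.5 to 5.15 FPKM in Chi3l1 ko and 3.19 to 6.66 FPKM in WT. Lef1, a transcription factor of naive T cells that was chosen after its values were seen, was high in the pair of libraries with lymph node genes. It had 0.130, 7.56, 4.23 and 0.0602 FPKM in Stat3 ko 1 to 4, and at most 0.0701 FPKM in Chi3l1 ko and 0.0967 FPKM in WT. Stat3 ko 4 lay within the range of the other groups. Without Stat3 ko 2 and 3, 0 of the 16 costimulation and state genes were called, with a median of 0.13, beside 399 of 13187 genes higher.

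Of 17 transcription factors of T cells, 11 were tested, and 1 rose and 1 fell in Stat3 ko against WT, with a median of 0.59. Over all tested genes 5.61% were higher and 14.0% were called in either direction. Id3, an inhibitor of E proteins, rose by 1.73 ± 0.39 (limma adjusted p = 0.0186), with 53.0 FPKM in Stat3 ko 1, its highest value, and 12.6 to 24.1 FPKM in Stat3 ko 2 to 4, against 4.94 to 8.71 FPKM in WT. Id3 had 5.35 to 13.4 FPKM in Chi3l1 ko, where Chi3l1 ko 2 lay above Stat3 ko 4. Which cells held its RNA was not tested. Gata3, a factor of T helper cells that luminal mammary epithelium also expresses, fell by 0.72 (SE 0.20, adjusted p = 0.0390), with 25.2, 16.9, 26.3 and 39.5 FPKM in Stat3 ko 1 to 4, against 40.3 to 47.3 FPKM in WT. Ets1 differed by 1.41 ± 0.44 (adjusted p = 0.0528) and Tcf7 by 2.03 ± 0.72 (adjusted p = 0.0768). Tcf7 had 5.23, 74.5, 46.4 and 4.70 FPKM in Stat3 ko 1 to 4, against 2.48 to 3.71 FPKM in Chi3l1 ko and 3.34 to 4.20 FPKM in WT. When Stat3 ko 2 and 3 were left out, 0 of 10 tested transcription factors were called, with a median of 0.099. That fit called 399 of 13187 genes higher and 582 lower. In Chi3l1 ko against WT 0 of the costimulation, transcription factor and constant-region genes were called, by limma or by edgeR. Each of these fits called 0 of 13643 genes higher and 1 lower.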

How the data were processed

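The values described here are RNA-seq levels of 10 T cell genes in 12 libraries, 4 in each of 3 groups taken from the genotype labels. Per the submitters' processing notes, Trimmomatic, STAR, HTSeq, edgeR and limma were used, builds are listed as GRCm38 and mm10, and no roles or versions are given. The authors deposited 1 FPKM value per library for each of 54532 genes. For genes with an unadjusted p-value under 0.05 the deposited comparison tables also give raw counts, normalized counts (a signal scaled by 1 factor per sample), and the p-values and log2 fold change that the authors computed. Multiplying FPKM by the deposited gene length and by a factor per library recovered counts that were whole within 0.01 for 100% of values. The factor was set from the sum of the deposited counts of that library. Of 54472 deposited counts compared, the same that set the factors, 0 differed from the recovered ones. The recovered depth was 16217143 to 22607123 counts per library, and no pair of libraries of a group agreed within sampling noise. Names of 27 genes stood as dates in the table, and 27 were restored from the identifiers.

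Levels were tested as log2(FPKM + 1), a scale that understates changes of low genes, with a pseudocount of 1. A gene was kept where 4 or more of 12 libraries had 1 FPKM or more (13643, with 9 of the 10 members). The 3 group means were fitted in limma 3.58.1 (trend on, R 4.3.3). Calls are two-sided, at an adjusted p under 0.05 by Benjamini-Hochberg over all tested genes. Errors of differences are limma's moderated standard errors. Ratios of 2 genes per library were compared by exact two-sided permutation tests over all 70 splits of 8 libraries, adjusted over 6 tests. Scripts were tested on simulated data. Alternatives were the recovered counts in DESeq2 1.42.0 or edgeR 4.0.16, array weights, 2 other scalings, other filters (none, or a mean of at least 5 FPKM), a pseudocount of 0.1, fits of 2 groups at a time, and fits with libraries left out. Members, gene lists and tests were chosen with earlier results of these data known. Of other genes, the text names by rule up to 4 per T cell list with the lowest adjusted p in Stat3 ko against WT, the first 2 of other cell types' lists where values bear on a member, and the 8 highest and 4 lowest in correlation with the members. Some genes that this rule names are not reported here. Duplicate symbols were resolved by the identifier with the highest mean. Promoter windows are RefSeq's for GRCm38.p6.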

Additional observations from a re-analysis of the deposited data

Results flagged for a closer look

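Dixon's test at 95% was run on 36 sets of 4 libraries, which are the 10 members and the ratios in each group. In 6 of them 1 library stood apart, which chance gives in about 1 of 20. The members vary together, and the 6 came from 2 libraries. Chi3l1 ko 3 stood above the other 3 Chi3l1 ko libraries in Cd8a (7.11 FPKM), Cd8b1 (5.92 FPKM) and Lck (6.54 FPKM). The same library had the highest Tcrg-C2 of all 12, at 8.06 FPKM. WT 2 stood above the other 3 WT libraries in Cd3d (2.76 FPKM), Cd4 (3.13 FPKM) and Cd8a (5.62 FPKM). Its B cell genes summed to 24.2 FPKM, against 9.97 to 15.3 FPKM in the other WT libraries. The cause of neither was tested. The test found no single library of Stat3 ko apart, where 2 libraries were high.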

How the results depend on the processing

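Against a count of 3 T cell genes called in Stat3 ko against WT by limma, array weights, edgeR and DESeq2 gave 9 each, and no filter, a fit of only the 2 compared groups, leaving out libraries over 2% mitochondrial counts, and leaving out Stat3 ko 2 and 3 gave 0 each. For Stat3 ko against Chi3l1 ko, 1 in the first fit, the count was 2 with a pseudocount of 0.1, a mean of at least 5 FPKM or median-of-ratios scaling, 6 with array weights, 7 with edgeR, 9 with DESeq2, and 0 in the 4 settings that gave 0 against WT. Leaving out 1 library gave 0 to 9 in both and 0 throughout in Chi3l1 ko against WT, which had 0 under every setting. Each member tested in Stat3 ko against WT had a positive difference under every setting run, where a mean of at least 5 FPKM left 7 to test. In Chi3l1 ko against WT small differences changed sign: array weights gave 0.033 for Cd3d and 0.049 for Cd4, and the mitochondrial setting gave 0.010 for Cd4. With 1 library left out these ran from -0.24 to 0.095 for Cd3d, -0.014 to 0.33 for Cd3g, -0.17 to 0.13 for Cd4, -0.30 to 0.030 for Cd2, -0.091 to 0.26 for Lck and -0.097 to 0.27 for Cd5. In Stat3 ko against Chi3l1 ko, Cd3e was -0.062 without Stat3 ko 2 and 3. The Cd8a to Cd4 ratio in Stat3 ko against WT was 0.24 with Cd8b1 and 0.28 without Stat3 ko 2 and 3, and the other ratios kept their signs. The cause of these shifts was not tested. Over all genes in Stat3 ko against WT, 766 rose and 1145 fell, against 148 and 358 with only the 2 groups, 446 and 703 without a filter, 575 and 1264 with quantile normalization, 1279 and 1075 with edgeR and 2092 and 1541 with DESeq2. Beside 708 genes higher in Stat3 ko against Chi3l1 ko, a pseudocount of 0.1 gave 736 and median-of-ratios scaling 747. A mean of at least 5 FPKM gave 328, from 8249 tested. Array weights gave 872, edgeR 933 and DESeq2 1775. No filter gave 430 and only the 2 groups 166. Leaving out libraries over 2% mitochondrial counts gave 662, and leaving out Stat3 ko 2 and 3 gave 394. Leaving out 1 library gave 176 to 1206. No paired analysis was possible because the labels give no replicate numbers or pairing. Members at 1 to 4 FPKM rest on few counts, so their small differences are imprecise.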
